A study of Homo sapiens with 6 samples.

Results

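The genes described here build and run the DNA replication machinery. They were 37 genes named by function, and a gene was measured where a probe set carried that gene's symbol and no other. This left 33 genes, each with 1 probe set, of 13139 genes so measured among the 19458 probe sets of the series. The probe sets for MCM7, POLA1, PCNA and FEN1 are annotated to further genes as well, so no value is given for those 4.

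Expression was measured in HCT116, an established human colon carcinoma line, in wild-type cells and in a derived line in which both BRCA2 alleles had been targeted in turn by homologous recombination. BRCA2 acts in the repair of DNA breaks by homologous recombination and in the protection of stalled replication forks. Both genotypes were grown untreated in the same serum-containing medium and had 3 arrays each, which the labels call technical replicates, so p-values measure the spread between arrays. Each genotype is a single line, so an effect of BRCA2 and one of line history cannot be told apart. BRCA2 transcript was not analysed here, so the genotype labels were not checked against the targeted gene.

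Replication begins when the origin recognition complex, CDC6 and CDT1 load the MCM2 to MCM7 ring onto origins in G1 phase, a step called licensing. In S phase, CDC45 and the GINS complex join the ring to form the active helicase, polymerase alpha with primase lays down primers, the RFC complex loads the PCNA clamp, and polymerases epsilon and delta copy the strands. Most of these genes are transcribed late in G1 by E2F factors, which cyclin E and its kinase help to set free from the RB protein. In a growing line such as HCT116 the share of cells in S phase and the amount of transcript per cell both set the level in bulk RNA, and they cannot be told apart here.

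The promoters are shown first because E2F letters are what many of these genes share that their choice did not use. Promoters of 300 bases, from 250 before to 50 after the start, were found in RefSeq (GRCh38.p14) for 28 of the 33 measured genes. Each was searched on both strands for TTTCGCGC and TTTGGCGC, which are written forms of the E2F motif and can overlap each other on opposite strands. Of the 28 genes, 9 held a match, or 32.1%, against 1.4% of 27305 genes with a promoter. With the shorter letters TTCGCGC and TTGGCGC, which each lie within the longer ones, 12 held a match, or 42.9%, against 6.1%. CCAAT, the NF-Y motif, was found in 53.6% against 39.7%. Below are the matches in CDC6 and E2F1, which had higher values in the knockout, and in MCM2, MCM6, POLE2 and ORC1, which had lower ones. Capitals mark the matched letters, for ORC1 those of the shorter form, and each sequence runs 5′ to 3′ on the gene's strand.
CDC6, chr17:40287875-40287904, plus strand: ggccattcggaTTTGGCGCgagcgcggctg
E2F1, chr20:33686386-33686440, minus strand: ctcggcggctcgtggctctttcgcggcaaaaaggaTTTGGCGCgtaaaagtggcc
MCM2, chr3:127598404-127598433, plus strand: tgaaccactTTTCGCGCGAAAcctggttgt
MCM6, chr2:135876487-135876630, minus strand: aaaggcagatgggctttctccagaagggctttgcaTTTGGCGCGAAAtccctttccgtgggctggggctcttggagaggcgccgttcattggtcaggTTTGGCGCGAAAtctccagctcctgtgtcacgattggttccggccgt
POLE2, chr14:49688201-49688230, minus strand: ctgcggcggtgGCGCCAAAtcgcaaatatg
ORC1, chr1:52404424-52404480, minus strand: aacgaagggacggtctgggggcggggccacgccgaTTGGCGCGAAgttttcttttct
The matches of E2F1 and ORC1 began 20 and 22 bases before the start, those of CDC6 and MCM2 at bases 8 and 3 after it, and MCM6 had 2, at 152 and 90 bases before it. A match is a run of letters and not evidence of binding.

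Most replication genes had lower mean values in the knockout, by small amounts, and none passed the test. Of the 33 genes, 26 were lower and 7 higher, or 78.8% lower, against 48.7% of all probe sets. Many of these genes rose and fell together across the arrays, so the 26 are not separate observations. The median log2 difference, knockout minus wild type, was -0.34, against 0.02 over all probe sets. None of the 33 was called in limma at an adjusted p (Benjamini-Hochberg over all probe sets) under 0.05, where 0.57% of all probe sets were, and their lowest adjusted p was 0.223. At an unadjusted limma p under 0.05, 2 of the 33, ORC1 and GINS3, were lower (5.28% of all probe sets were) and 1, CDC6, was higher (6.92%). These counts are near or below the background. The genotypes' arrays did not overlap for 9 of the genes, or 27.3%, against 19.7% of all probe sets. Of these, 6 were lower in the knockout (7.7% of all probe sets were) and 3 higher (12%).

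**Figure D1:**
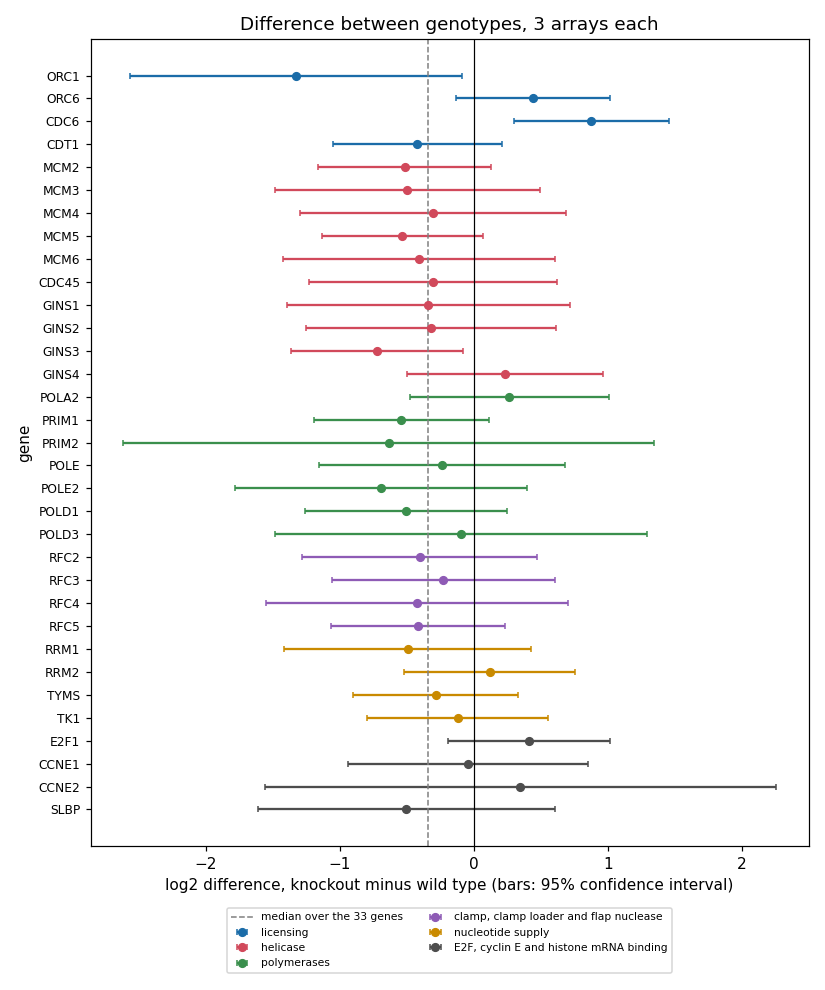
Log2 difference (knockout minus wild type) on the horizontal axis for each of the 33 genes on the vertical axis, with points for the estimate from 3 arrays per genotype, bars for the 95% confidence interval of the moderated fit, and colours for function. The dashed line is the median over the genes, -0.34, and the intervals of ORC1, GINS3 and CDC6 leave out 0.

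Wild-type array 1 and knockout array 2 stood apart, and many replication genes followed them. Their medians over all probe sets were 7.71 and 7.80 on the log2 scale, against 7.36 to 7.48 on the other 4 arrays. For 18 of the 33 genes, or 54.5%, these were the highest arrays of their genotypes, against 39.1% of all probe sets. Over the 33 genes, the median deviation from each gene's own mean was 0.35, -0.16 and 0.16 across the wild-type arrays in order of number. Across the knockout arrays it was -0.30, 0.39 and -0.44. Knockout array 2 thus stood above every wild-type array in this measure, while the other knockout arrays stood below every wild-type array. Without both of these arrays, 26 genes were again lower (50.9% of all probe sets were), the median difference was -0.57, and none was called, where 0.036% of all probe sets were. After quantile normalization, which gives all 6 arrays the same distribution, 26 genes were lower (49.6% of all probe sets were), the median difference was -0.37, 7 genes did not overlap (20.9%) and none was called (0.894%). The genes whose separation was lost were RFC5 and E2F1. After each array's median was subtracted, 6 genes did not overlap (20.6%), with MCM2, PRIM1, RFC5 and E2F1 lost and RRM1 added. Without knockout array 2, 21 genes, or 63.6%, did not overlap (39.4% of all probe sets). Without both arrays 22, or 66.7%, did not (47.3%). Without knockout array 1 or 3 alone, the counts were 9 (28.6% of all probe sets) and 10 (24%). Without wild-type array 1, 2 or 3 they were 12 (27.3%), 12 (30.7%) and 9 (26.2%). Leaving out arrays can only keep or add separations, so none of these counts could fall below that from all 6 arrays. Among the single arrays left out, the share over all probe sets rose most without knockout array 2. The part of this array pattern in the results was not tested further.

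**Figure D2:**
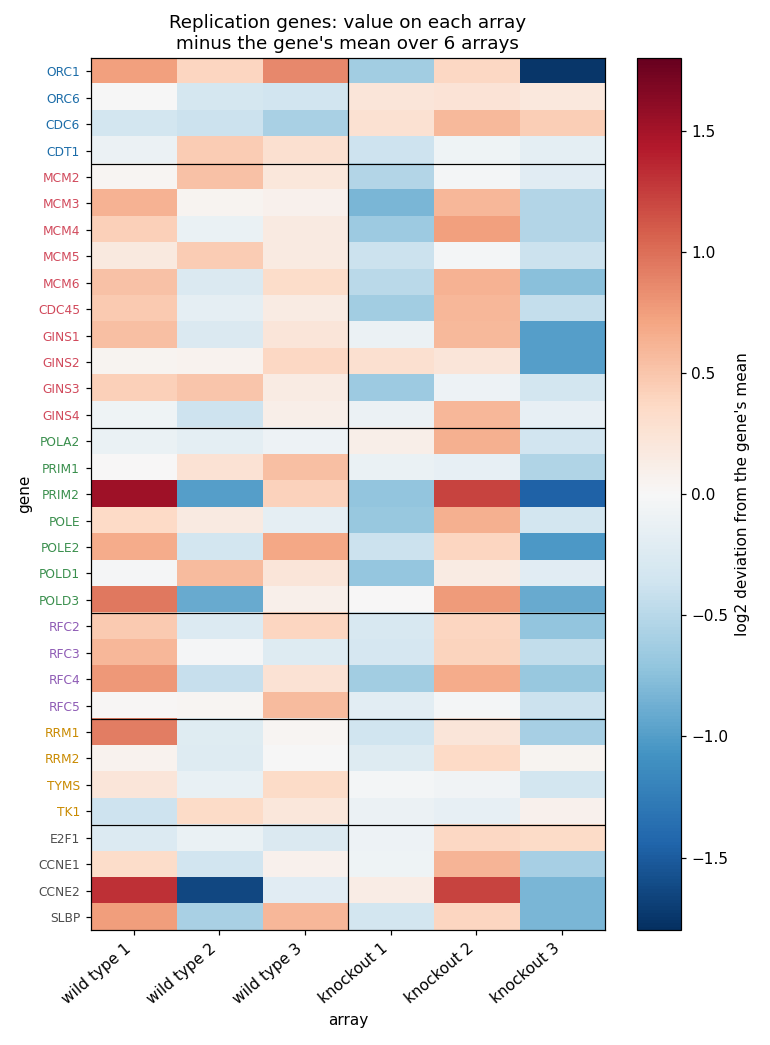
Heat map of the log2 value of each gene (rows, grouped by function and coloured by it) on each array (columns) minus that gene's mean over 6 arrays, with red above and blue below the mean. Knockout array 2 is mostly red while knockout arrays 1 and 3 are mostly blue, and CDC6, ORC6 and E2F1 are red on all or nearly all knockout arrays.

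**Figure D3:**
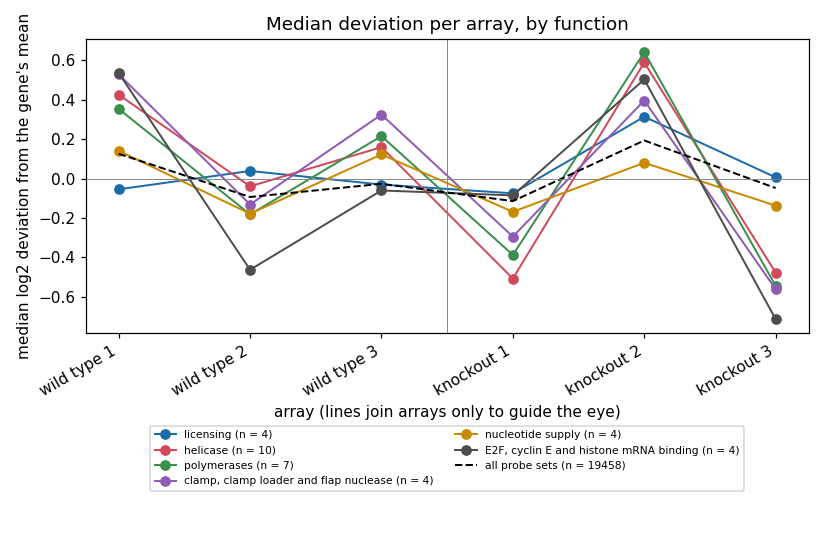
Median log2 deviation from the gene's own mean (vertical axis) on each of the 6 arrays (horizontal axis) for the 6 functions and, dashed, for all 19458 probe sets. Helicase genes run from 0.43 on wild-type array 1 to -0.51 on knockout array 1 and 0.59 on knockout array 2, and licensing and nucleotide supply genes move less.

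The licensing factors did not go one way. ORC1 and CDC6, partners in the complex that loads the MCM ring, had the largest differences of all 33 genes in opposite directions. ORC1 encodes the largest subunit of the origin recognition complex, and its log2 values were 8.31, 7.96 and 8.44 in wild type and 6.95, 7.95 and 5.83 in knockout. The genotypes did not overlap, but the gap was 0.01, between wild-type array 2 and knockout array 2. The means were 8.24 ± 0.25 and 6.91 ± 1.06 (SD over 3 arrays each), which is a knockout minus wild-type difference of -1.33 ± 0.52 (SE; 95% confidence interval -2.56 to -0.09; adjusted p = 0.376 in limma). Wild-type ORC1 was thus 2.51-fold the knockout level, with a wide error. The difference was -0.79 without knockout array 3, which is smaller in size than that of CDC6 on the same arrays (0.87), and -1.85 without knockout array 2.

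CDC6 encodes the ATPase that joins the origin complex and recruits the MCM ring. Its values were 10.34, 10.29 and 10.09 in wild type and 10.96, 11.26 and 11.13 in knockout. All knockout arrays were above all wild-type arrays, with a gap of 0.61, the widest among the 33 genes. The means were 10.24 ± 0.13 and 11.12 ± 0.15 (SD, n = 3), a difference of 0.88 ± 0.24 (SE; interval 0.30 to 1.45), or 1.84-fold, with an adjusted limma p of 0.223. At an adjusted p under 0.05, CDC6 was the only replication gene called under any alternative fit, with a variance trend (adjusted p = 0.0269, where 2.04% of all probe sets were called) and with array weights (adjusted p = 0.0474, where 4% were). Over all alternatives its adjusted p ran from 0.0269 to 0.733, the highest with the replicate number as a block. Without wild-type array 1 and knockout array 2 its difference was 0.86.

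ORC6, a small subunit of the origin complex, had values of 8.05, 7.75 and 7.71 in wild type and 8.28, 8.31 and 8.24 in knockout. The knockout arrays lay close together and above the wild type, and the difference of 0.44 ± 0.24 had an adjusted limma p of 0.520. CDT1, which escorts the MCM ring to origins, had values of 9.23, 9.79 and 9.63 against 8.96, 9.26 and 9.16, which overlapped by 0.02, and a difference of -0.42 ± 0.27. Within each array, the log2 value of CDC6 minus that of ORC1 was 2.04, 2.32 and 1.64 in wild type and 4.0, 3.31 and 5.30 in knockout. This pair was chosen after the values were seen, and the measure carries no test. It compares change across arrays only, since the levels of different probe sets have no common scale.

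**Figure D4:**
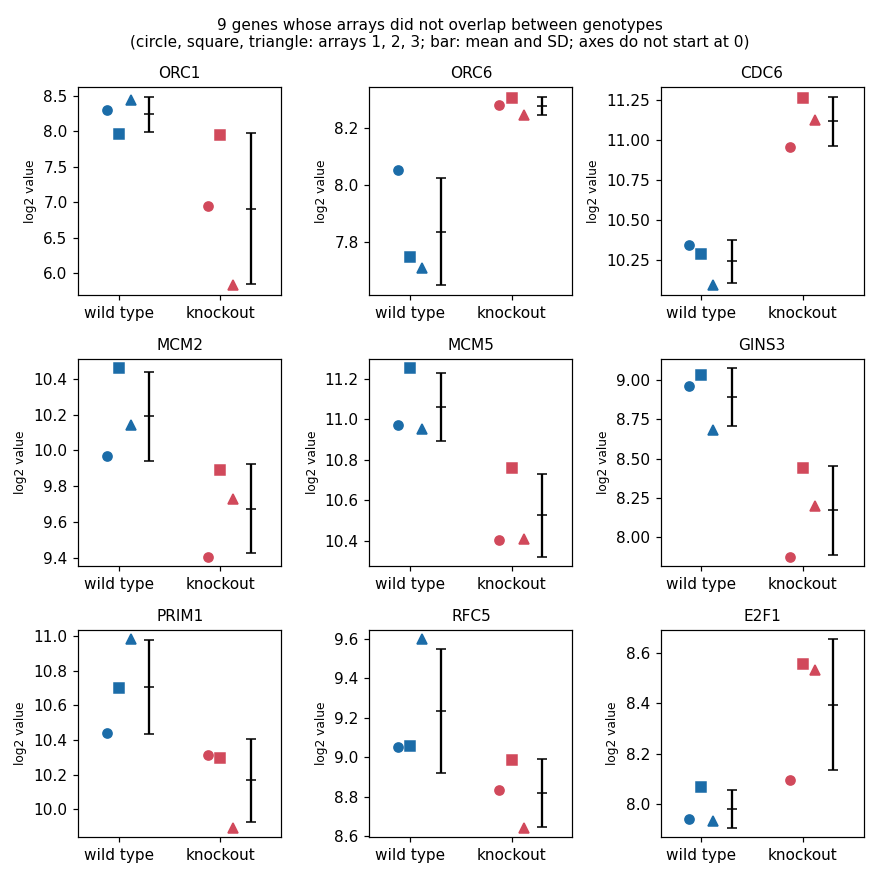
Log2 values (vertical axes, not starting at 0) of the 9 genes whose arrays did not overlap between wild type (blue) and knockout (red), with circles, squares and triangles for arrays 1, 2 and 3 and bars for the mean and SD. CDC6, ORC6 and E2F1 lie higher in the knockout and the other 6 lie lower, with gaps from 0.01 in ORC1 to 0.61 in CDC6.

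The genes of the helicase were lower in 9 of 10 cases, with a median difference of -0.37, and none was called. All 5 measured subunits of the MCM ring, which unwinds DNA ahead of the fork, were lower, by between 0.30 and 0.53 on the log2 scale. MCM5 had values of 10.97, 11.25 and 10.95 in wild type and 10.40, 10.76 and 10.41 in knockout. These did not overlap, with a gap of 0.19, and the difference was -0.53 ± 0.26 (SE; interval -1.13 to 0.07; adjusted p = 0.466 in limma). MCM2 had values of 9.97, 10.46 and 10.14 in wild type and 9.40, 9.89 and 9.73 in knockout, without overlap by 0.08, and a difference of -0.52 ± 0.27 (adjusted p = 0.509 in limma).

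The other ring subunits were lower on knockout arrays 1 and 3 but not on knockout array 2. MCM3 had values of 9.40, 8.82 and 8.85 in wild type and 7.96, 9.37 and 8.26 in knockout, a difference of -0.50 ± 0.42. MCM4 had values of 9.83, 9.28 and 9.57 against 8.75, 10.14 and 8.87, a difference of -0.30 ± 0.42. MCM6 had values of 9.92, 9.13 and 9.72 against 8.89, 10.01 and 8.63, a difference of -0.41 ± 0.43. For MCM4 and MCM6, knockout array 2 was the highest of all 6 arrays, and for MCM3 it was just below wild-type array 1. When wild-type array 1 and knockout array 2 were left out, the differences of MCM3, MCM4 and MCM6 were -0.73, -0.61 and -0.66, close to those of MCM2 (-0.73) and MCM5 (-0.69) in the same 4 arrays. Leaving out other arrays made them smaller. Without knockout array 1 they were -0.21, -0.051 and -0.27, and without knockout array 3 they were -0.36, -0.11 and -0.13. Without wild-type array 1 alone they were -0.31, -0.17 and -0.24. The sizes of these 3 differences thus rest on which arrays are used, while those of MCM2 ran from -0.73 to -0.38 and those of MCM5 from -0.69 to -0.44 over all alternatives.

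GINS3, a subunit of the 4-part GINS complex that ties the helicase to polymerase epsilon, had the lowest unadjusted p among the lower genes. Its values were 8.96, 9.03 and 8.68 in wild type and 7.87, 8.44 and 8.20 in knockout. No arrays overlapped, with a gap of 0.25, and the difference was -0.72 ± 0.27 (SE; interval -1.36 to -0.08; adjusted p = 0.352 in limma), so that the wild-type level was 1.65-fold that of the knockout. Its partners did not follow it evenly. GINS1 had a difference of -0.34 ± 0.45 and GINS2 of -0.32 ± 0.40, and in both the lowest array was knockout array 3 (7.45 and 7.52). Without that array these differences were 0.07 and 0.10. GINS4 was at 0.23 ± 0.31, the only helicase gene with a higher mean in the knockout, and this came to 0.0075 without wild-type array 1 and knockout array 2. CDC45, the factor that completes the active helicase, had values of 7.52, 6.88 and 7.18 against 6.41, 7.64 and 6.61, and a difference of -0.30 ± 0.39.

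Polymerase and primase genes were lower in 6 of 7 cases, with a median of -0.51, the most negative of the functions, and none was called. PRIM1, the catalytic subunit of primase, was the only one without overlap. Its values were 10.44, 10.70 and 10.98 in wild type and 10.31, 10.29 and 9.89 in knockout, without overlap by 0.13, and the difference was -0.54 ± 0.28 (SE; interval -1.19 to 0.11; adjusted p = 0.495 in limma). Its partner PRIM2 had values of 8.05, 5.53 and 6.94 against 5.81, 7.74 and 5.07. The arrays of PRIM2 spread over more than the genotypes differed, and its difference of -0.63 ± 0.84 had an interval of -2.61 to 1.35.

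POLE2, an accessory subunit of the leading-strand polymerase epsilon, had the largest polymerase difference, -0.69 ± 0.46, from values of 7.57, 6.56 and 7.60 in wild type and 6.51, 7.29 and 5.86 in knockout. These overlapped, since wild-type array 2 was below knockout array 2. POLE, the catalytic subunit, had a difference of -0.24 ± 0.39 and was highest on knockout array 2 (8.59). POLD1, the catalytic subunit of the lagging-strand polymerase delta, had values of 8.18, 8.77 and 8.42 against 7.50, 8.35 and 8.0, and a difference of -0.51 ± 0.32. POLD3, an accessory subunit of that enzyme, was at -0.10 ± 0.59, with an interval of -1.48 to 1.29 that leaves its direction unknown. POLA2, which bridges polymerase alpha to the rest of the fork, was the only polymerase gene with a higher mean in the knockout, 0.27 ± 0.31. Its wild-type values lay within 9.28 to 9.37, and the knockout values of 9.56, 10.11 and 9.11 lay on both sides of them.

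All 4 measured subunits of the clamp loader, the ATPase that opens the PCNA ring, were lower, by between 0.23 and 0.42 on the log2 scale, and none was called. RFC5 had values of 9.05, 9.06 and 9.60 in wild type and 8.83, 8.99 and 8.64 in knockout, which did not overlap by 0.07, and a difference of -0.41 ± 0.28 (adjusted p = 0.589 in limma). RFC4 had values of 9.62, 8.43 and 9.11 against 8.22, 9.51 and 8.15, and a difference of -0.42 ± 0.48. RFC2 was at -0.40 ± 0.37 and RFC3 at -0.23 ± 0.35, and in RFC2, RFC3 and RFC4 knockout array 2 was within the range of the wild type.

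Genes for nucleotide supply had a median difference of -0.20, and none was called. RRM2, the regulated subunit of ribonucleotide reductase, had values of 11.85, 11.56 and 11.79 in wild type and 11.56, 12.15 and 11.85 in knockout, and a difference of 0.12 ± 0.27 with an interval of -0.52 to 0.76. TK1, the thymidine kinase of the salvage route, had a difference of -0.12 ± 0.29 (interval -0.80 to 0.56), from values of 10.67, 11.40 and 11.25 against 10.95, 10.89 and 11.12. TYMS, which makes thymidylate, was at -0.29 ± 0.26, with values of 10.08, 9.72 and 10.21 against 9.82, 9.80 and 9.53. RRM1, the large subunit of ribonucleotide reductase, had the largest difference of the 4, -0.49 ± 0.39, from values of 10.01, 8.87 and 9.13 against 8.74, 9.31 and 8.49. The genotypes overlapped in all 4, and the intervals still allow changes of about the size seen in the helicase genes.

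E2F1, the transcription factor that drives many of the other genes, had deposited values that were higher on every knockout array than on any wild-type array. Its values were 7.94, 8.07 and 7.94 in wild type and 8.10, 8.56 and 8.53 in knockout. The gap was only 0.03, and the difference of 0.41 ± 0.26 (SE; interval -0.19 to 1.02) had an adjusted limma p of 0.565. The separation was lost after median centring and after quantile normalization, where wild-type array 2 (8.26) lay above knockout array 1 (8.22). The cyclin E genes did not separate. CCNE1 had values of 7.95, 7.28 and 7.71 against 7.55, 8.24 and 7.02, and a difference of -0.04 ± 0.38. CCNE2 spread most of all 33 genes within the wild type, with values of 6.85, 3.90 and 5.33 against 5.66, 6.75 and 4.71, and its difference of 0.35 ± 0.81 is undetermined. SLBP, which binds the stem-loop of histone mRNA in S phase, was at -0.51 ± 0.47, with values of 9.70, 8.37 and 9.55 against 8.63, 9.35 and 8.13.

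Genes with E2F letters were found on both sides. Of the 9 measured genes with a match to the longer forms, 6 were lower and 3 higher in the knockout, with a median difference of -0.34. Of the 19 without a match, 17 were lower and 2 higher, with a median of -0.41. CDC6, E2F1 and POLA2 were the 3 with a match and a higher mean, while POLE2, MCM2, MCM3, MCM6, GINS1 and POLE were lower. With the shorter forms, 8 genes with a match were lower and 4 higher, against 15 lower and 1 higher among those without, so that 4 of the 5 higher genes with a promoter held a match. ORC1, with the largest negative difference, held the shorter form, as did CDC6, with the largest positive one. These counts are a description, with no test.

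**Figure D5:**
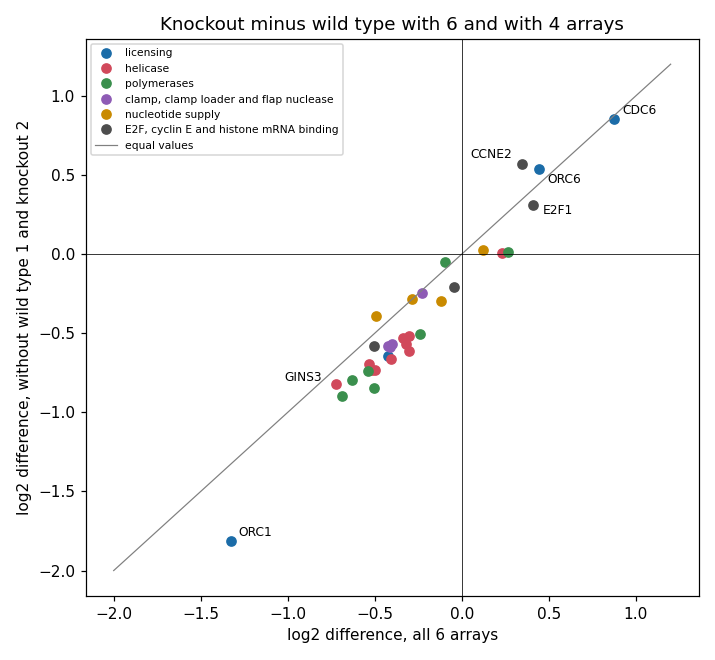
Log2 difference (knockout minus wild type) of each of the 33 genes from all 6 arrays (horizontal axis) against that from the 4 arrays left without wild-type array 1 and knockout array 2 (vertical axis), coloured by function, with a grey line for equal values. Most lower genes lie below the line, ORC1 moves from -1.33 to -1.81, and CDC6 stays near the line at 0.88 and 0.86.

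Other genes of the pathway were taken from lists drawn up by function. Of 74 such genes, 62 had a probe set of their own, and 39 of these were lower and 23 higher, with a median of -0.22 and none called in limma. At an unadjusted limma p under 0.05, 3 were lower, namely E2F4, LIG1 and CCNA2, and none was higher, where 5.28% of all probe sets were lower and 6.92% higher, so that the count is not above the background. The arrays did not overlap for 6 of the 62, or 9.68%, which is below the 19.7% of all probe sets. Of these, 4 were lower, namely E2F4, LIG1, CCNA2 and RPA2 (7.7% of all probe sets were). CHTF18 and CCND1 were the 2 higher ones (12%), with differences of 0.64 ± 0.27 and 0.48 ± 0.28.

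E2F4, an E2F factor best known as a repressor in resting cells, had values of 9.48, 9.85 and 9.85 in wild type and 8.54, 8.57 and 8.53 in knockout. Its knockout arrays lay within a narrow range 0.91 below the lowest wild-type array. The difference was -1.18 ± 0.25 (SE; interval -1.76 to -0.60), the wild-type level being 2.26-fold that of the knockout, with an adjusted limma p of 0.127. It was called with a variance trend (adjusted p = 0.0286) and with array weights (adjusted p = 0.0208), but not after quantile normalization (0.108). LIG1, the ligase that seals Okazaki fragments, had values of 8.98, 9.03 and 9.03 against 8.21, 8.39 and 7.63, without overlap by 0.59, and a difference of -0.93 ± 0.29 (adjusted p = 0.255 in limma). CCNA2, the cyclin of S and G2 phases, had values of 10.40, 10.18 and 10.49 against 9.47, 10.10 and 9.28, without overlap by 0.08, and a difference of -0.74 ± 0.30 (adjusted p = 0.391 in limma).

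Among origin firing factors 7 of 8 were lower (median -0.41), and MTBP, a partner of the firing factor TICRR, had the largest difference, -0.59 ± 0.64. All 4 measured genes of fork protection and single-strand binding were lower (median -0.40), with the checkpoint mediator CLSPN at -0.69 ± 0.74. In chromatin assembly 5 of 6 genes were lower (median -0.31), and the histone chaperone ASF1A was at -0.41 ± 0.34. Origin recognition and licensing control genes were divided into 3 lower and 3 higher, and the licensing inhibitor geminin, GMNN, was at -0.66 ± 0.50. Of further nucleotide supply genes, 3 of 5 were lower (median -0.30), with the dUTPase gene DUT at -0.68 ± 0.59. Of the checkpoint genes, 3 of 4 were lower, with the kinase CHEK1 at -0.56 ± 0.39. Further polymerase subunits were divided into 2 lower and 2 higher, with POLD4 at -0.34 ± 0.29. Further loaders and lagging-strand genes, LIG1 among them, had 4 of 6 lower (median -0.33), and the E2F and RB family, with E2F4, in 6 of 10 (median -0.11). The cyclins, kinases and inhibitors of G1 and S went the other way, with 7 of 9 higher (median 0.30), but without wild-type array 1 and knockout array 2 only 4 were higher and the median was -0.01.

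Most markers of the labelled cell type had high values, and no limit of detection was applied. Of 7 colon epithelial genes, 6 had mean log2 values of at least 9.88 in both genotypes. VIL1, which encodes a protein of intestinal microvilli, was low, with means of 5.58 and 5.82 for wild type and knockout. Of the blood cell markers, PTPRC had 5.37 and 5.87, CD3E 6.73 and 7.46, and CD68 8.62 and 9.13. The array medians over all probe sets were 7.36 to 7.80, and both CD68 means lay above them. All 7 colon epithelial genes were higher in the knockout, with none called, and for 5 of the 7 the arrays did not overlap (12% of all probe sets were higher without overlap). CDH1, the adhesion protein E-cadherin, had a gap of 0.99, wider than that of any replication gene, and a difference of 1.15 ± 0.24 (adjusted p = 0.127 in limma). The fibroblast marker COL1A1 also had a wider gap, 0.72, and a difference of 1.10 ± 0.26 (adjusted p = 0.159 in limma). Its knockout mean of 8.64 lay above every array median as well. On each array, the average over the fibroblast markers was 6.29 to 6.98 in wild type and 6.46 to 7.33 in knockout. The average over the blood cell markers was 6.20 to 7.37 and 6.97 to 7.85. All 5 fibroblast markers and all 3 blood cell markers also had higher means in the knockout, with none called and none at 0. Their part in the differences of the replication genes was not tested.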

How the data were processed

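The authors deposited summarised log2 probe set values of whole-transcript arrays for 6 samples, 3 per genotype, and per the submitters' processing notes RMA, R 2.11.1 and hg18 were used. The RMA steps and filters are not given in the sources used here, and the log2 scale was taken from the values. The deposited distributions differ between arrays. The platform annotation gave the gene names (13301 with 1 symbol, 2044 with several, 4113 with none).

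Genotypes were compared over all 19458 probe sets with limma 3.58.1 in R 4.3.3 (lmFit and eBayes, genotype only), without a filter, with Benjamini-Hochberg adjustment and calls at an adjusted p under 0.05. Each difference is the knockout mean minus the wild-type mean, with the SE and 95% interval of the fit. The code was tested on simulated data with independent noise and no shared array pattern, so that test does not show what size of difference could be called here. Precision is limited by the number of arrays. The 33 genes and all lists were chosen with earlier results of these data known. All 33 are named; values on each array are given for those with an unadjusted p under 0.05, without overlap or with the largest difference of their function, and for further genes chosen after their values were seen. Of the other pathway genes, those with an unadjusted p under 0.05 or without overlap are named. In each list with no p under 0.05, that of largest difference is named too. Alternatives were median centring, quantile normalization, a filter, a floor of 4, other variance models, array weights, a replicate block, left-out arrays and other thresholds.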

Additional observations from a re-analysis of the deposited data

How the results depend on the processing

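Of the 33 replication genes, 23 kept the sign of their difference under every alternative. Several alternatives could not turn a sign. The filter, the other variance models, the replicate block and the probe set average leave each difference as it was. Median centring moves all differences by the same small amount. After median centring, after quantile normalization and without both arrays of highest median, 26 genes were lower. With any 1 array left out, between 22 (without knockout array 3) and 29 (without knockout array 2) were lower, and 23 were without wild-type array 1. The number of genes called was 1 with a variance trend and 1 with array weights (CDC6 in both), and 0 under the other alternatives that kept the threshold. With an unadjusted p under 0.05 it was 3, and the count of other pathway genes was 1, 1 (E2F4 in both) and 3 in the same settings. Over both directions, neither count at the unadjusted p was above the background (5.28% of all probe sets lower and 6.92% higher). With any 1 array left out, the number of genes without overlap was between 9 and 21 (21 without knockout array 2, where 39.4% of all probe sets did not overlap), it was 22 when both arrays of highest median were left out (47.3%), and 6 after median centring (20.6%). Leaving out arrays cannot lower this number, while median centring can. The median difference was between -0.62 (without knockout array 2) and -0.15 (without knockout array 3), and -0.17 without wild-type array 1. Signs turned for GINS4 with array weights (-0.053) and, over the left-out arrays, for GINS1 (-0.72 to 0.074), GINS2 (-0.54 to 0.096), GINS4 (-0.0099 to 0.37), POLE (-0.62 to 0.038), POLD3 (-0.57 to 0.36), RFC3 (-0.48 to 0.013), RRM2 (-0.031 to 0.27), TK1 (-0.34 to 0.025), CCNE1 (-0.36 to 0.25) and CCNE2 (-0.38 to 1.09). The cause was not tested. Without the dimmest 30% of probe sets, 31 of the genes were left, and averaging a gene's probe sets changed nothing, as each had 1. The shared replicate numbers did not pair the arrays (correlations of same-numbered deviations -0.24, -0.43 and 0.06). The highest such correlation between genotypes was 0.49, for wild-type array 1 and knockout array 2. With the number as a block (replicate block) 0 genes were called. Both genotypes hold the same numbers, so the block leaves each difference unchanged, and the count of 26 lower was fixed by the design. Signal over background was not analysed here, so no limit by signal is given.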
